A study of Mus musculus with 8 samples.

Results

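RNA abundance was examined for 47 genes that encode proteins of the mitochondrial respiratory chain, the mitochondrial ribosome and the mitochondrial protein import machinery, in male germ cells sorted from mouse testes as they began to differentiate. The genes were chosen by name, as every row of the expression table whose symbol starts with *Nduf*, *Uqcr*, *Atp5*, *Sdh* and a letter from a to d, or *Cox*, *Mrpl*, *Mrps*, *Timm* or *Tomm* and a digit. They are 47 of the 5736 genes in the table. No row matched *Atp5*, so the ATP synthase is not analysed here, and neither are the genes of the mitochondrial DNA itself.

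Mitochondria make ATP by passing electrons along complexes I to IV of the inner membrane, and the proton gradient this builds drives the ATP synthase. Most subunits are encoded in the nucleus, made in the cytosol and brought in through the TOM complex of the outer membrane and the TIM complexes of the inner membrane. The few subunits encoded by mitochondrial DNA are made by the mitochondrial ribosome, whose proteins are all nuclear products as well. Germ cells are known to change their mitochondria and their use of glycolysis and respiration as spermatogenesis proceeds.

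Bulk RNA sequencing was done on 8 libraries of EGFP+ germ cells from CD1:Uchl1-eGFP mice, in which the *Uchl1* promoter drives EGFP. By the labels, the mice behind every group received bis-(dichloroacetyl)-diamine, a blocker of retinoic acid synthesis, at 100 µg/g from P1 (postnatal day 1) to P10 by the series text or P11 by the treatment protocol, and the protocol shared by all samples adds 10 µl of retinoic acid at 10 µg/µl on P11. By the paper, this dose of retinoic acid induced differentiation, and P11 testes held undifferentiated spermatogonia before it. The 3 groups were Aal, undifferentiated spermatogonia of P11 testes (2 libraries), A1, spermatogonia 24 hours after retinoic acid at the first differentiating stage (3 libraries), and A3, a later differentiating stage (3 libraries) for which the labels give no age. Each library was made from a separate preparation of cells that pooled at least 5 pups of a litter, and *Uchl1* is also used by some other cells, so the sort is by a promoter that is not limited to germ cells.

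Library totals ran from 18276164 to 27316451 reads, and the genes of the table held 34% to 34.4% of them. Counting alone gave the median member an error of 3.17% to 3.92%, depending on the library. Undifferentiated markers matched the labels: of 10 tested, 7 were lower in A1 than in Aal (all genes: 14%) and 9 were lower in A3 (all genes: 21.8%). Differentiating markers matched in part. Of 5 tested, 4 were higher in A1 than in Aal (all genes: 13%) and 4 were higher in A3 than in Aal (all genes: 21.9%). In A3, 1 was lower than in Aal (all genes: 21.8%) and 2 were lower than in A1 (all genes: 5.45%). Sertoli cell markers did not follow the germ cell labels. The 12 in the table, among them *Clu*, *Cst12* and *Fshr*, summed to 41.1 to 63.0 FPKM in the Aal libraries, A1-1 and A1-2, to 412 in A1-3 and to 400.01, 294 and 215 in the A3 libraries. Of the 12, 11 were higher in A3 than in Aal (all genes: 21.9%) and 1, *Trf*, was lower (all genes: 21.8%). No gene in the table has a value of 0 in any library, so a value above 0 does not show that a marker was present. Leydig, macrophage and peritubular myoid markers were highest in A1-3, at sums of 8.80, 10.5 and 6.53 FPKM. Endothelial markers summed to 7.84 and 8.94 in Aal, 4.87 to 6.45 in A1 and 2.61 to 2.99 in A3. Of 3 endothelial markers tested, 2 were lower in A3 than in Aal (all genes: 21.8%). Results that rest on A1-3 are therefore given with and without it. All A3 libraries carry the Sertoli transcripts, so their part in a difference between A3 and Aal cannot be told apart from that of the stage. In bulk samples, fewer cells of a type and less RNA per cell cannot be told apart either.

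Values are FPKM, fragments scaled by gene length and by the reads of the library, which allows levels to be compared between genes. A log2 fold change is the difference of group means of log2(FPKM + 1) from limma, so a change in a gene of low FPKM is understated. Genes were called where p, adjusted by Benjamini-Hochberg over all genes tested, did not exceed 0.01 and the log2 fold change passed 1 in either direction. They were higher or lower at the same p with a change of any size. The p sets the difference of group means against the spread between preparations, which limma estimates partly from all genes tested.

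The members were expressed at higher levels than most of the table. Their median FPKM, averaged over libraries, was 30.7 against 5.93 for all genes, and 39 of 47 reached 10 FPKM against 39.5% of the table. The most abundant were *Cox4i1* at 327 FPKM, *Cox7c* at 269.9, *Cox5b* at 188, *Mrpl42* at 183 and *Mrps5* at 157. *Cox4i2* and *Ndufa4l2* stood at the bottom, at under 1 FPKM on average. These 2 were also the only members with fewer than 10 reads in some library. Of the 47, 45 passed the filter on low values (at least 1 FPKM in at least 2 of the libraries compared) in every comparison. *Cox4i2* passed in none. *Ndufa4l2* passed only where A3 was compared.

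**Figure D1:**
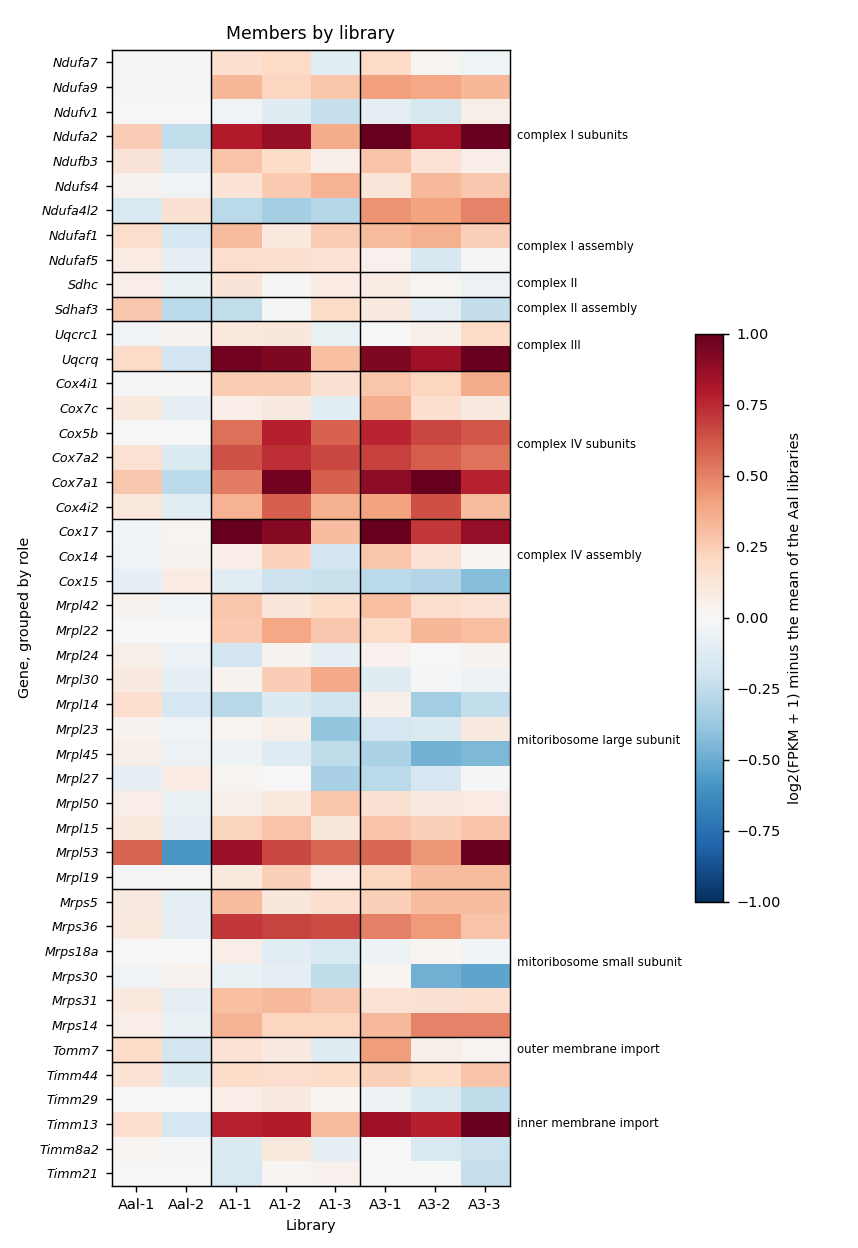
Colour shows log2(FPKM + 1) of 46 members (rows, grouped by role) in each library (columns), minus the mean of the Aal libraries, with colours capped at 1 and -1. Most rows are pale in all 8 libraries, while *Ndufa2*, *Uqcrq*, *Cox17*, *Cox5b*, *Cox7a2*, *Cox7a1* and *Timm13* are darker red in A1 and A3, *Uqcrq*, *Cox17*, *Ndufa2* and *Timm13* least so in A1-3, and *Mrpl53* differs as much between its Aal libraries.

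Expression of the members as a whole moved little as undifferentiated spermatogonia became A1 and A3 cells, and no member was called in any of the 3 comparisons. In A1 against Aal, 0 of 45 tested members were called by limma, where 9.15% of all 4632 genes tested were called. Higher in A1 were 5 members, *Cox5b*, *Cox7a2*, *Mrps36*, *Mrpl22* and *Ndufa9* (all genes: 13%), and 0 were lower (all genes: 14%). At an unadjusted p under 0.05, 0 members passed a log2 fold change of 1, 15 were above 0 and 0 were below 0. Here and below, no share of all genes is given for an unadjusted p, for voom or with a library left out. Those counts therefore have no background to be judged by. The voom test on reads recovered from the FPKM values called 0, with 3 higher and 0 lower. Without Aal-1, Aal-2, A1-1 or A1-2, the members that were higher numbered 3, 2, 3 and 3, and without A1-3 they were 8. The share of members that were higher was close to that of all genes, while the share that were lower was under it.

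In A3 against A1, 0 of 46 members were called (all genes: 1.5%), 1 was higher (all genes: 2.16%) and 0 were lower (all genes: 5.45%). At an unadjusted p under 0.05, 0 passed a log2 fold change of 1 and 5 were below 0, and the voom test called 1 and gave 0 lower. The single higher member was *Ndufa4l2*, which entered the test only through its A3 values. Between the 2 differentiating stages the members were therefore measured at nearly the same levels: the 95% interval of the change lay within 0.5 of 0 on the log2 scale for 39 of 46 (all genes: 63.8%). This interval rule was chosen after the data had been seen. The members are also more abundant than most genes, and no share for genes at their level is given in this comparison.

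In A3 against Aal, 0 of 46 members were called, where 17.6% of 4687 genes were. At an unadjusted p under 0.05, 0 passed a log2 fold change of 1, 20 were above 0 and 2 were below 0, and the voom test called 1, *Uqcrq*, with 10 higher and 1 lower. These counts, too, lack a share of all genes to stand beside. Higher in A3 were 11 members (all genes: 21.9%) and 1, *Mrpl45*, was lower (all genes: 21.8%). Without Aal-2 the number higher was 6, without Aal-1 5 members were called, among them *Uqcrq* and *Ndufa2*, and without A3-2 3 were called. The 11 were *Uqcrq*, *Ndufa2*, *Cox7a1*, *Cox17*, *Timm13*, *Cox5b*, *Cox7a2*, *Mrps14*, *Mrps36*, *Ndufa9* and *Mrpl22*. Again the share that rose was near the background and the share that fell was below it. The interval lay within 0.5 of 0 for 35 of 45 members in A1 against Aal (all genes: 48.8%) and for 28 of 46 in A3 against Aal (all genes: 35%). Among the 39 members of at least 10 FPKM it did so for 26 in A3 against Aal, or 66.7%, where 53% of the genes at that level did. For A1 against Aal no share at that level is given.

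The median log2 fold change of the members was 0.16 in A1 against Aal, 0.02 in A3 against A1 and 0.17 in A3 against Aal. Over all genes tested the medians were 0.03, 0.01 and 0.05. The 2 comparisons with Aal share the Aal libraries. Of these, Aal-2 was below Aal-1 for 35 of 47 members, where 54.8% of the table was. Without Aal-1 the members' median in A3 against Aal was 0.26, and without Aal-2 it was 0.09. With a trend in gene length taken out, an alternative chosen after seeing the data, the median was 0.04 against 0.05 for all genes.

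**Figure D2:**
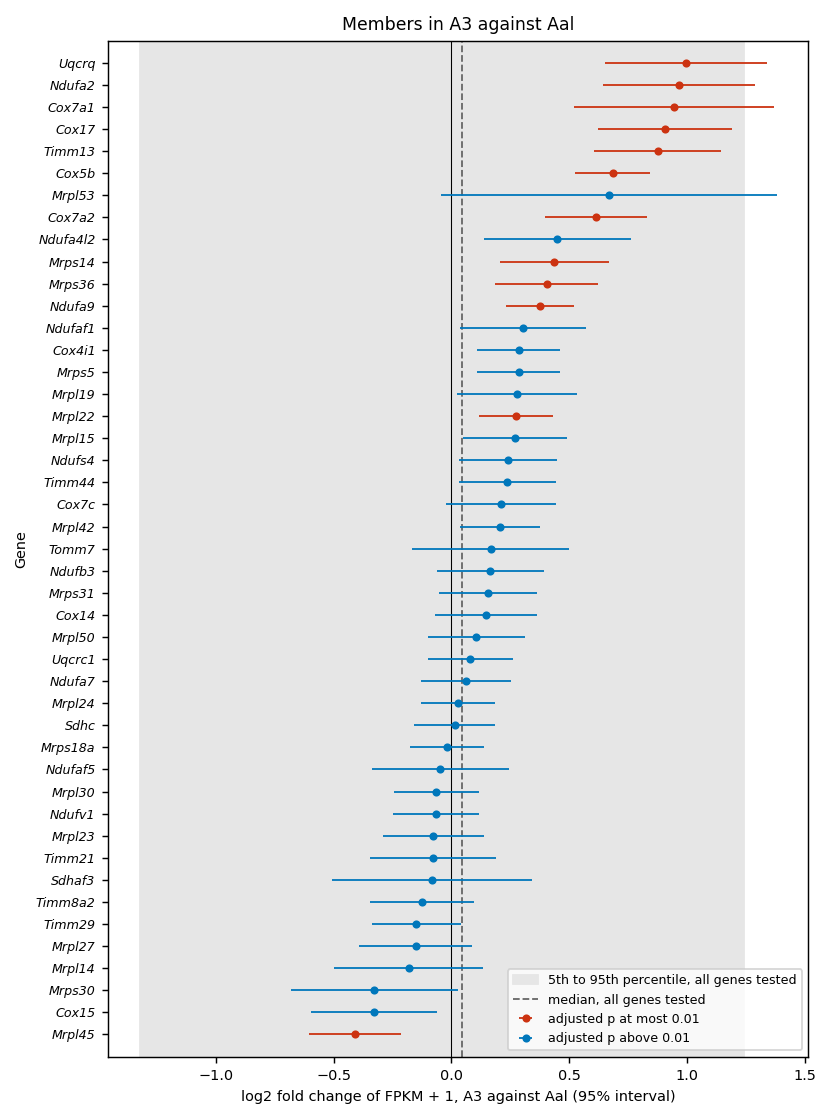
Points give the log2 fold change of FPKM + 1 in A3 against Aal for 45 of the 46 members tested, with 95% intervals, and the grey band spans the 5th to the 95th percentile of all 4687 genes tested. Members lie between -0.41 and 1.00, inside the band from -1.32 to 1.24, and the 11 higher members and *Mrpl45* are drawn in red.

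Promoter sequences are shown for 4 members, chosen because the results turn on them. *Cox5b*, *Cox7a2* and *Timm13* were higher in A3 than in Aal under all 17 alternatives run, and *Mrpl45* was the member that was lower. Each run of 300 bases goes from 250 bases before to 50 bases after the start of the gene, from RefSeq on GRCm38.p6, and capitals mark a match to 1 of the 4 motifs described next. The positions in order are chr1:36691237-36691536 on the + strand, chr9:79759804-79760103 on the - strand, chr10:80900920-80901219 on the - strand and chr11:97315466-97315765 on the + strand.
Cox5b: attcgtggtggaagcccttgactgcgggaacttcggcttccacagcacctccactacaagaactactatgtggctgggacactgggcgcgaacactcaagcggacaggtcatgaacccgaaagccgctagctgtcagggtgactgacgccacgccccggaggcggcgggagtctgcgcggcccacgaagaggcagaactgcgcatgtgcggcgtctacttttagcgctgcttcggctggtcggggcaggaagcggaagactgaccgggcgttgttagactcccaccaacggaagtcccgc
Cox7a2: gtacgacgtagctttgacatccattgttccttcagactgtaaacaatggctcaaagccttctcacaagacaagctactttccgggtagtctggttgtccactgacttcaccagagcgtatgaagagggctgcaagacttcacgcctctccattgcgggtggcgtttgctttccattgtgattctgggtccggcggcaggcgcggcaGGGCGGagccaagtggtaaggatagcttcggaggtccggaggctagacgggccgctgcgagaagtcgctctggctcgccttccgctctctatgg
Timm13: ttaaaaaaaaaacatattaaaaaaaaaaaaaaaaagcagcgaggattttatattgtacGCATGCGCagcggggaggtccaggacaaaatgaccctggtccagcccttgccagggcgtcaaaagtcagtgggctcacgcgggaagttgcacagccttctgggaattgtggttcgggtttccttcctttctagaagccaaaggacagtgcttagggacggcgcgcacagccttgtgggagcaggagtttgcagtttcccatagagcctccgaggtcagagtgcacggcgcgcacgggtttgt
Mrpl45: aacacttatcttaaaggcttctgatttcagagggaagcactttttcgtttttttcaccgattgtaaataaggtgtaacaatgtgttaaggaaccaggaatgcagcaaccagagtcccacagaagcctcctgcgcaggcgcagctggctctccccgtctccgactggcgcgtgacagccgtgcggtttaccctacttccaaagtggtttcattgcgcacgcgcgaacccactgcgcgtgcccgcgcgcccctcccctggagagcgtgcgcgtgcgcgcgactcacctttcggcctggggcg

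The 4 motifs were GCATGCGC for NRF1, CCGGAAG for ETS factors such as GABP, AAGATGGC for YY1 and GGGCGG for the GC box. NRF1, GABP and YY1 are known as regulators of nuclear genes for mitochondrial proteins, and all motifs were searched on both strands. RefSeq promoters were matched for 35 of 47 members. Of these, 22 held at least 1 motif, or 62.9%, against 72.2% of the 4350 table genes with a promoter and 44.0% of 27025 genes in all. The ETS motif was in 28.6% of the members' promoters against 16.1% for the table and 9.93% for all genes. The NRF1 motif was in 11.4% against 5.70% and 3.05%, and the YY1 motif in 11.4% against 4.39% and 3.19%. The GC box was in 28.6% against 64.5% and 38.2%. Among the sequences shown, *Timm13* holds an NRF1 motif and *Cox7a2* a GC box, while *Cox5b* and *Mrpl45* hold none of these letters. Of the 8 higher members with a promoter, 2 held the NRF1 motif, 1 the ETS motif, 1 the YY1 motif and 3 the GC box. These are matches of letters, not measured binding.

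Complex I takes electrons from NADH and is the largest complex of the chain. The table holds 8 of its subunits by name and 2 assembly factors. *Ndufa2*, an accessory subunit, had the largest log2 fold change of FPKM + 1 among them in A3 against Aal. It stood at 43.1 and 30.4 FPKM in Aal, at 63.3, 67.1 and 47.0 in A1 and at 77.3, 64.6 and 73.7 in A3. The groups do not overlap between Aal and either later stage. The mean went from 36.7 ± 8.97 (SD, n = 2) to 71.9 ± 6.56 (SD, n = 3) in A3, with a log2 fold change of 0.97 ± 0.14 (SE) and a limma adjusted p of 0.000572. Against Aal, A1 changed by 0.68 with an adjusted p of 0.0233, and without A1-3, its lowest A1 library, it was 0.83 with an adjusted p of 0.000791. By the GENCODE M1 annotation *Ndufa2* overlaps *Tmco6* on the other strand, and whether reads were counted by strand is not stated.

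*Ndufa9*, an accessory subunit of the arm that reaches into the matrix, was at 68.2 and 67.2 FPKM in Aal, 85.5, 78.7 and 82.3 in A1, and 90.2, 88.7 and 85.5 in A3. Every A1 and A3 library was above both Aal libraries. Its log2 fold change was 0.28 ± 0.06 (SE) in A1 against Aal, with a limma adjusted p of 0.00966, and 0.38 ± 0.06 in A3 against Aal, with an adjusted p of 0.00114. The A1 result is close to the threshold and passed it in 2 of 17 alternatives. Its limma adjusted p was between 0.0147 and 0.0235 without any 1 of the 3 A1 libraries. It also did not pass without Aal-1 or Aal-2, at log2 fold changes of 0.29 and 0.27. The A3 result passed in 13 of 17 and was lost without Aal-1 or Aal-2, at log2 fold changes of 0.39 and 0.37. *Ndufv1*, a core subunit that binds NADH, had a log2 fold change of -0.06 in A3 against Aal, with an interval from -0.25 to 0.12. *Ndufa7*, the most abundant subunit here at 82.2 FPKM, was at 0.06 with an interval from -0.13 to 0.25.

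*Ndufa4l2*, a paralogue of *Ndufa4* counted by its name with complex I, was rare and had its own pattern. It stood at 0.344 and 0.662 FPKM in Aal, at 0.243, 0.190 and 0.228 in A1 and at 1.04, 0.977 and 1.11 in A3. These values rest on 8 and 16 reads in Aal, 5, 5 and 4 in A1, and 19, 21 and 27 in A3. The A3 mean was 4.74 times the A1 mean, the log2 fold change on the FPKM + 1 scale was 0.74 ± 0.11 (SE) and the limma adjusted p was 0.00407. Since the gene reached the filter only in A3, this test was run because A3 was high. The p was above 0.01 in 5 of 14 alternatives, at 0.0131 without A1-1, 0.0220 without A1-2, 0.0221 without A3-2, and 0.0243 and 0.0313 with the replicate number as a block. Without A3-1 or A3-3 the gene did not pass the filter. The gene overlaps *Shmt2* on the other strand. The assembly factors *Ndufaf1* and *Ndufaf5* had log2 fold changes of 0.30 and -0.05 in A3 against Aal, with adjusted p of 0.0521 and 0.777.

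Complex II, succinate dehydrogenase, ties the citric acid cycle to the chain and was represented by *Sdhc*, a membrane anchor subunit. It was among the most even members, at 62.0 and 56.3 FPKM in Aal, 64.8, 59.4 and 62.6 in A1, and 62.1, 60.2 and 56.7 in A3. The log2 fold change in A3 against Aal was 0.01 with an interval from -0.16 to 0.19. Its assembly factor gene *Sdhaf3* was at -0.08 with a wide interval from -0.51 to 0.34, since its Aal libraries read 7.00 and 4.49 FPKM.

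Complex III passes electrons to cytochrome c. *Uqcrq*, a small subunit near the quinone sites, had the largest log2 fold change of FPKM + 1 among the members tested. It was at 10.4 and 7.73 FPKM in Aal, 18.5, 18.1 and 11.3 in A1, and 18.0, 16.9 and 22.1 in A3. All A3 libraries were above both Aal libraries, and A1-3 lay just above them. The change in A3 against Aal was 1.00 ± 0.15 (SE), with a ratio of mean FPKM of 2.10 and a limma adjusted p of 0.000658. For A1 against Aal it was 0.73 with an adjusted p of 0.0327, and 0.95 with an adjusted p of 0.000345 without A1-3. *Uqcrc1*, a core subunit, stayed between 88.5 and 107 FPKM in all 8 libraries and had a log2 fold change of 0.08 in A3 against Aal, with an interval from -0.10 to 0.26.

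Complex IV, cytochrome c oxidase, moves electrons to oxygen, and of its 5 subunits tested 3 were higher in A3 than in Aal (all genes: 21.9%). *Cox5b*, a nuclear subunit of the matrix side that binds zinc, lies at chr1:36748332-36750230 on mm9. It was at 131 and 129.9 FPKM in Aal, 192, 225 and 197 in A1, and 222, 208 and 202 in A3. The A1 and A3 libraries overlap each other and lie well above Aal. The log2 fold change was 0.64 ± 0.08 (SE) in A1 against Aal, with a limma adjusted p of 0.000897, and 0.68 ± 0.07 in A3 against Aal, with an adjusted p of 0.000102. The A1 value was 0.65 without Aal-1 and 0.63 without Aal-2, and its adjusted p was then 0.0117 and 0.0154.

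*Cox7a2* encodes the widely used form of subunit 7a and *Cox7a1* the form typical of heart and skeletal muscle. *Cox7a2* (chr9:79603048-79607660 on mm9) was at 86.3 and 70.6 FPKM in Aal, 122, 131 and 124 in A1, and 126, 119 and 114 in A3. All A1 and A3 libraries were above both Aal libraries, and the A3 libraries overlap those of A1. Its log2 fold change was 0.68 ± 0.09 (SE) in A1 against Aal, with a limma adjusted p of 0.00114, and 0.61 ± 0.09 in A3 against Aal, with an adjusted p of 0.000739. *Cox7a1* was far less abundant, at 6.45 and 4.14 FPKM in Aal, 7.80, 11.1 and 8.37 in A1, and 10.5, 13.0 and 9.52 in A3. It was higher in A3 than in Aal by 0.95 ± 0.18 (SE), with a limma adjusted p of 0.00262, on 38 to 111 reads a library. Without Aal-2 it was at 0.68 with an adjusted p of 0.0254. The muscle form made up 6.95% and 5.53% of the summed FPKM of both forms in Aal, 6.03%, 7.81% and 6.30% in A1, and 7.70%, 9.79% and 7.68% in A3. These shares overlap between Aal and A1, and those of A3 lie above those of Aal by little more than their spread.

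*Cox4i1* and *Cox7c*, the most abundant members, changed less. *Cox4i1*, the common form of subunit 4, was at 283 and 289 FPKM in Aal, 342, 340.1 and 318 in A1, and 347, 331 and 369.5 in A3. Each later library was above both Aal libraries, yet its log2 fold change of 0.29 in A3 against Aal had an adjusted p of 0.0123 and did not pass. It overlaps the gene model *Gm20388* on the same strand. *Cox7c* was at 0.21 with an interval from -0.02 to 0.44. *Cox4i2*, the alternative form known from lung and from low oxygen, was at 0.285 and 0.110 FPKM in Aal and between 0.490 and 0.862 in the later stages, on 2 to 16 reads a library, and was not tested.

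**Figure D3:**
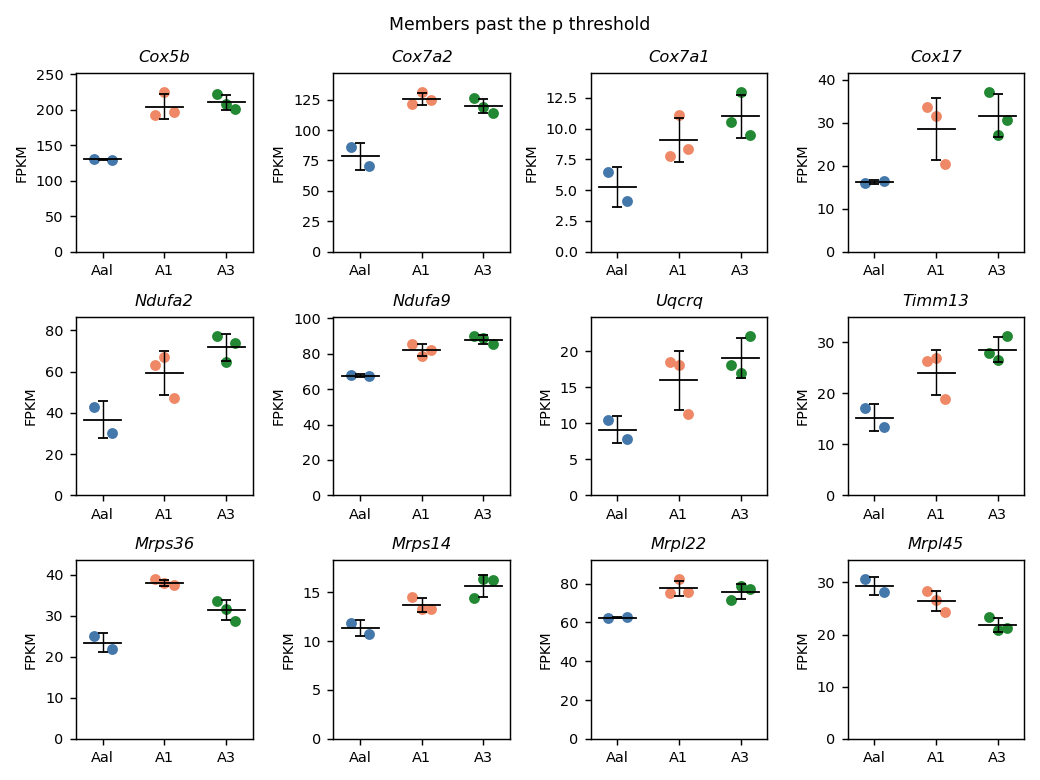
Each panel shows the FPKM of 1 member by library (points), with the mean (long bar) and SD (error bar) of the 2 Aal, 3 A1 and 3 A3 libraries, on an axis from 0. The panels hold the 11 members higher in A3 than in Aal and *Mrpl45*; *Cox5b*, *Cox7a2* and *Mrps36* stand well above Aal in all A1 libraries, and A1-3 is the lowest A1 point for *Cox17*, *Ndufa2*, *Uqcrq* and *Timm13*.

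Of the 3 complex IV assembly factors, *Cox17*, which carries copper to the complex, was higher in A3. It was at 16.0 and 16.5 FPKM in Aal, 33.6, 31.6 and 20.3 in A1, and 37.0, 27.1 and 30.7 in A3. Its mean of 31.6 ± 5.04 (SD, n = 3) in A3 against 16.2 ± 0.409 (SD, n = 2) in Aal gave a log2 fold change of 0.91 ± 0.12 (SE) and a limma adjusted p of 0.000401. Against Aal, A1 changed by 0.74 with an adjusted p of 0.0199, and 0.96 with an adjusted p of 3.73e-05 without A1-3. The annotated *Cox17* overlaps *Popdc2* on the same strand. *Cox15*, which makes the haem A of the complex, was below both Aal libraries in every later library, but its log2 fold change of -0.33 in A3 against Aal had an adjusted p of 0.0399. *Cox14* was at 0.15 with an interval from -0.07 to 0.36.

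The mitochondrial ribosome was the largest class, with 12 proteins of the large and 6 of the small subunit, counted by name and with *Mrps36* included. Of the 18, 3 were higher in A3 than in Aal (all genes: 21.9%) and 1 was lower (all genes: 21.8%). *Mrps36* (chr13:101505910-101514614 on mm9), a protein also described as part of the 2-oxoglutarate dehydrogenase complex, was highest in A1. It was at 25.1 and 21.9 FPKM in Aal, 38.9, 38.1 and 37.4 in A1, and 33.7, 31.7 and 28.8 in A3, and no library of 1 group overlaps another group. The log2 fold change was 0.68 ± 0.08 (SE) in A1 against Aal, with a limma adjusted p of 0.000539. In A3 against A1 it was -0.28, and its adjusted p of 0.0275 did not pass. In A3 against Aal it was 0.40 ± 0.10 (SE) with an adjusted p of 0.00687, above 0.01 in 8 of 17 alternatives, among them the fits without Aal-1 (0.0137), Aal-2 (0.0761) and A3-2 (0.0227).

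*Mrps14* and *Mrpl22* moved less. *Mrps14* was at 11.9 and 10.7 FPKM in Aal, 14.5, 13.3 and 13.3 in A1, and 14.4, 16.3 and 16.3 in A3, with a log2 fold change of 0.44 ± 0.10 (SE) in A3 against Aal and a limma adjusted p of 0.00607. *Mrpl22* was at 62.3 and 62.7 FPKM in Aal and between 71.7 and 82.2 in all later libraries. It was higher by 0.31 ± 0.06 (SE) in A1, with an adjusted p of 0.00731, and by 0.28 ± 0.07 in A3, with an adjusted p of 0.00890. In A3 against Aal the results for *Mrps14* and *Mrpl22* passed the p threshold in 9 and 6 of 17 alternatives. Both were lost without Aal-1, Aal-2, A3-2 or A3-3, where the adjusted p was 0.0194, 0.0612, 0.0285 and 0.0220 for *Mrps14* and 0.0550, 0.0524, 0.0396 and 0.0274 for *Mrpl22*. The A1 result of *Mrpl22* was lost without A1-1 (limma adjusted p 0.0107) or A1-2 (0.0317). It was also lost without Aal-1 or Aal-2, at log2 fold changes of 0.30 and 0.31.

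*Mrpl45*, which lies near the peptide exit of the mitochondrial ribosome, was the member that fell. It was at 30.6 and 28.1 FPKM in Aal, 28.3, 26.6 and 24.4 in A1, and 23.4, 20.8 and 21.2 in A3. Aal and A1 overlap, and every A3 library lies below both. The log2 fold change in A3 against Aal was -0.41 ± 0.08 (SE), for which limma gave an adjusted p of 0.00354. The p was at most 0.01 in 12 of 17 alternatives, and was 0.0430 without Aal-1, 0.0161 without Aal-2, 0.0155 without A3-2 and 0.0118 without A3-3. By mm9 it lies at chr11:97177030-97191234 and overlaps *Gm11594* on the other strand.

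The other 14 proteins of the mitochondrial ribosome did not pass in any comparison with all libraries of both groups in the limma fit. *Mrpl42* and *Mrps5*, the most abundant of each subunit, had log2 fold changes of 0.21 and 0.29 in A3 against Aal, with adjusted p of 0.0411 and 0.0124. For *Mrps5* the adjusted p was 0.00868 with voom and 0.00716 without A3-1. *Mrps30* was at -0.33 with an interval from -0.68 to 0.03, since its A3 libraries read 33.7, 23.5 and 22.8 FPKM, and without A3-1 it was at -0.50 with an adjusted p of 0.000193. *Mrpl53* shows what 2 Aal libraries cannot resolve. It read 11.5 and 4.56 FPKM in Aal, on 172 and 71 reads, and 10.3 to 15.5 in the later libraries, so that a log2 fold change of 0.67 came with an interval from -0.05 to 1.38. Without Aal-1 it was at 1.25 with an adjusted p of 0.00449, and at 1.28 with an adjusted p of 0.00512 in A1 against Aal. It overlaps *Ccdc142* on the same strand.

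Among import genes, *Timm13* rose. It encodes a small chaperone that, with its partner TIMM8, escorts proteins across the intermembrane space. It was at 17.1 and 13.3 FPKM in Aal, 26.4, 26.9 and 19.0 in A1, and 27.9, 26.6 and 31.3 in A3. The groups do not overlap between Aal and either later stage. The log2 fold change was 0.88 ± 0.12 (SE) in A3 against Aal, with a limma adjusted p of 0.000386. In A1 against Aal it was 0.62 with an adjusted p of 0.0218, and 0.78 with an adjusted p of 0.000458 without A1-3. On mm9 *Timm13* lies at chr10:80362195-80363714.

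No other import gene passed in any comparison. *Timm8a2*, a homologue of *Timm8a1*, was at -0.12 with an interval from -0.35 to 0.10. *Timm44*, which anchors the import motor at the inner membrane channel, was at 0.24 with an interval from 0.03 to 0.44, its A3 libraries all above Aal, and an adjusted p of 0.0496. *Timm29* was at -0.15 with an interval from -0.34 to 0.04, and at -0.21 in A3 against A1, where the libraries do not overlap and the adjusted p was 0.0680. *Tomm7*, a small subunit of the outer membrane pore, read 50.3 and 38.6 FPKM in Aal, 48.8, 47.0 and 40.5 in A1, and 59.3, 45.8 and 45.0 in A3. These groups overlap, and its log2 fold change of 0.17 had an interval from -0.17 to 0.50.

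Several members share their behaviour in 1 library. *Ndufa2*, *Uqcrq*, *Cox17* and *Timm13* were all lowest, among the A1 libraries, in A1-3, and 25 of 47 members lay below both other A1 libraries there, where 34.4% of the table did. A1-3 is also the shallowest library and the A1 library with the Sertoli transcripts. Without it, *Ndufa2*, *Uqcrq*, *Cox17* and *Timm13* passed in A1 against Aal, and 8 members in all were higher. The changes of *Cox5b*, *Cox7a2* and *Mrps36* in A1 against Aal were as large without it, at 0.67, 0.69 and 0.69.

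By the median, the higher members were shorter genes than the other members tested, though not all of them were short. The length is the one behind the FPKM values. Its median was 1109 bases for the members against 2938 for the table, and 744 for the 11 higher members against 1201 for the other 35 tested. Of the 11, 7 were under 1000 bases, and of the other 35, 15 were. Across the 46 members tested, Spearman's rho of length with the log2 fold change in A3 against Aal was -0.26, and across all 4687 genes it was -0.16. These are descriptions over genes of the same libraries. Over all genes the median change was 0.32 for the 75 genes of up to 500 bases and -0.09 for the 890 of more than 5000. With the length trend taken out, 8 members were higher in A3 than in Aal, and *Cox17*, *Uqcrq* and *Cox5b* were at 0.70, 0.89 and 0.51. The part of gene length in the results was not tested further.

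**Figure D4:**
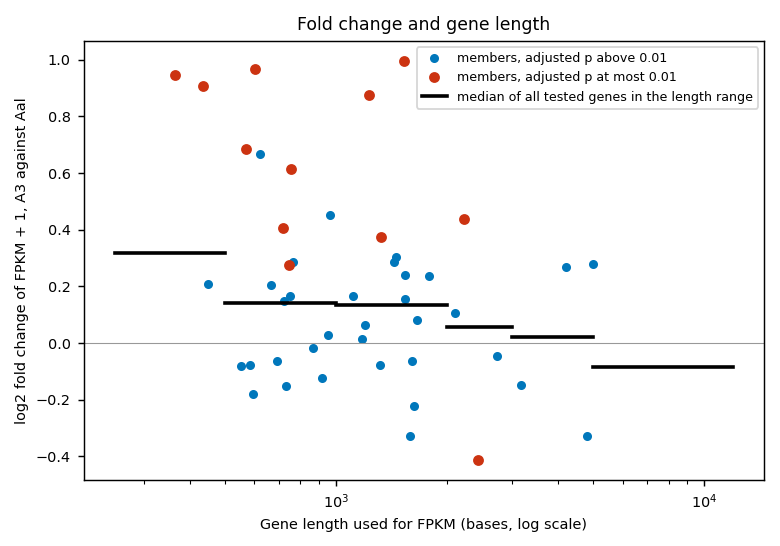
Points show the log2 fold change in A3 against Aal of the 46 members against the gene length in bases (log scale), and black lines the median of all genes tested in each of 6 length ranges, the outer 2 of which are open-ended. The median falls from 0.32 in the shortest range to -0.09 in the longest, and 7 of the 11 higher members are under 1000 bases.

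Summed by class, the FPKM of the complex IV subunits was 778 and 730.1 in Aal, 929, 977 and 884 in A1, and 1033, 957 and 965 in A3, so that every later library was above Aal. The complex I subunits summed to 415 and 379 in Aal, 453, 456 and 409.7 in A1, and 464, 441 and 456 in A3, so that A1-3 overlaps Aal. The large mitoribosomal subunit summed to 520.05 and 479 in Aal, 543, 547 and 528 in A1, and 540.5, 518 and 530.3 in A3, where A3-2 lies below Aal-1. The small subunit summed to 264 and 241 in Aal and to between 280.2 and 308 in all later libraries.

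Cytosolic ribosomal proteins and glycolysis enzymes are given for comparison, as genes that also serve translation and energy supply. The table holds 32 rows named *Rpl* or *Rps* and a digit, for the cytosolic ribosome, and their summed FPKM was 15686 and 15923 in Aal, between 9998 and 11857 in A1 and between 10679 and 11187 in A3. Of the 32, 17 were lower in A3 than in Aal (all genes: 21.8%) and 1 was higher (all genes: 21.9%), with a median log2 fold change of -0.57. Of the 18 genes counted by name with the mitochondrial ribosome, 1 was lower and 3 were higher, *Mrps36* among the higher. For the 32 rows in A1 against Aal the counts were 17 lower (all genes: 14%) and 1 higher (all genes: 13%), with a median of -0.61. In A3 against Aal, *Rpl22l1* at -2.04 and *Rpl35* at -0.87 had the smallest p of these rows. The rows also include *Rps6ka5*, *Rps19bp1* and *Rpl14-ps1*, which are not ribosomal protein genes, and none of these passed in A3 against Aal. Of 7 glycolysis genes in the table, 4 were lower in A3 than in Aal (all genes: 21.8%) and 1 was higher (all genes: 21.9%). The lower ones were led by *Ldha*, which makes lactate dehydrogenase A, at -1.96, and *Slc2a3*, a glucose transporter, at -1.18. The differences between these groups and the mitochondrial genes were not tested.

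**Figure D5:**
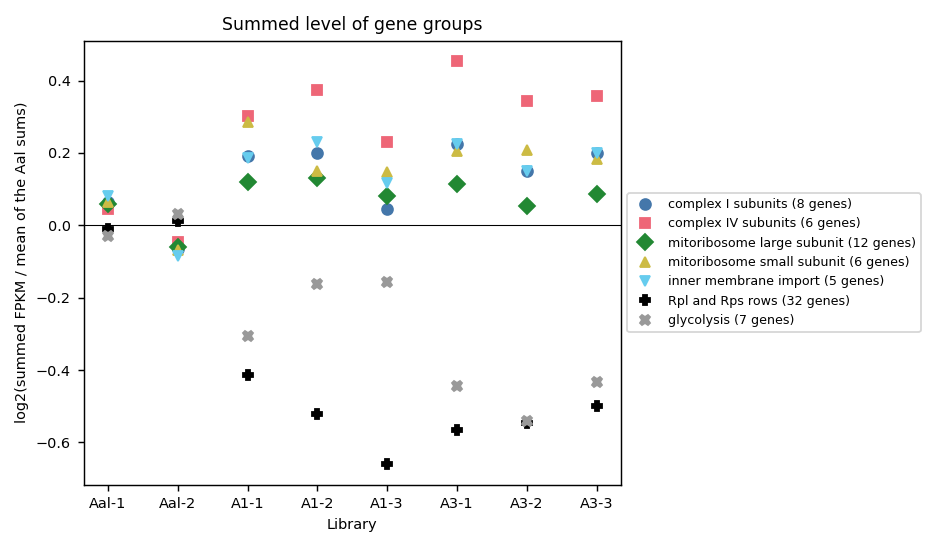
Points give the log2 ratio of the summed FPKM of each gene group in each library to the mean of the Aal sums. The complex IV subunits lie above 0 in all A1 and A3 libraries, where they sum to between 884 and 1033 FPKM, while the *Rpl* and *Rps* rows and the glycolysis genes lie below 0.

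Other nuclear genes for mitochondrial proteins, from lists written with earlier results of these data known, were mixed, and the counts below stand beside 21.9% higher and 21.8% lower among all genes tested in A3 against Aal. Of 10 genes for other assembly factors and cytochromes, 3 were higher in A3 than in Aal and 0 lower by limma. They include *Cyc1*, the cytochrome c1 of complex III, which went from 72.1 and 70.3 FPKM in Aal to 128, 126 and 105 in A1 and to 125, 134 and 133 in A3, with a log2 fold change of 0.86 ± 0.07 (SE) and an adjusted p of 2.98e-05. *Higd1a*, a small protein tied to complex IV and low oxygen, was at 0.81. Of 9 genes for other import factors and chaperones, 3 were higher and 1 was lower, with *Immp2l*, an inner membrane peptidase, at -1.38 and *Clpp*, a matrix protease, at 0.51.

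Of 14 genes for mitochondrial translation, 4 were higher and 1 was lower. *Aurkaip1*, a protein of the small mitoribosomal subunit under another name, was at 0.78 and *Nars2*, the asparaginyl-tRNA synthetase, at -0.93. Of 9 genes for mitochondrial biogenesis, 2 were higher and 2 lower, with *Gabpa*, a subunit of the ETS factor GABP, at 0.87 and *Mterf2* at -0.96. Of 10 genes for the citric acid cycle and pyruvate use, 3 were higher and 3 lower. *Pdha1*, a subunit of pyruvate dehydrogenase, fell from 27.3 and 24.4 FPKM in Aal to 16.4, 14.8 and 16.2 in A1 and to 10.0, 7.43 and 8.34 in A3, while *Pcx*, pyruvate carboxylase, was at 0.72. Of 6 genes for mitochondrial shape and transport, *Opa1*, needed for inner membrane fusion, was higher at 0.72 and *Rhot2* lower at -0.31.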

How the data were processed

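The values are FPKM per gene and library, deposited by the authors after trimming with cutadapt 1.9, alignment to mm9 with STAR 2.5.2b and counting with featureCounts. The annotation, the strand setting and the FPKM step are not given in the sources used here. The authors' own differential test (DESeq2) was not used. Whole reads were recovered from the steps of the FPKM values for 100% of values, within a relative 1e-05, and gave library totals of 18276164 to 27316451 reads.

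Pairs of groups (2 Aal, 3 A1 and 3 A3 libraries) were fitted with limma 3.58.1 in R 4.3.3 on log2(FPKM + 1), with a mean-variance trend, over genes of at least 1 FPKM in at least 2 libraries compared, and p was adjusted by Benjamini-Hochberg over all genes tested. The fit was tested on simulated data. Named genes were called members, the largest rise and fall and the most abundant gene of each role, known isoforms, and 2 genes of smallest p per other list. *Cox5b*, *Mrpl22*, *Mrps36* and *Ndufa9*, and *Ndufv1* and *Cox14*, were named after their values were seen. The values of 1 member, which enters the counts and sums, are not reported here. The members and lists were chosen with earlier results of these data known. Promoters came from RefSeq, GRCm38.p6, and gene positions on mm9 from GENCODE M1. Alternatives covered the pseudocount, filter, trend, scaling, a voom fit on recovered reads, a replicate block and each library left out.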

Additional observations from a re-analysis of the deposited data

How the results depend on the processing

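With the rule of an adjusted p of at most 0.01, *Cox17*, *Cox5b*, *Cox7a2*, *Ndufa2*, *Timm13* and *Uqcrq* passed in A3 against Aal, and *Cox7a2* and *Mrps36* in A1 against Aal, under all 17 alternatives. The alternative values counted next are for single members named here and do not cover all 47. Of these 1535 values, 1368 kept their direction and side of the threshold, 70 were no longer past it, 28 came past it and 69 changed sign, and the cause was not tested. Counting alone gave the median member an error of 3.17% to 3.92%. The median SD of the members, as a percent of the mean, was 7.77% over the A1 libraries and 7.54% over the A3 libraries. The part of depth and of the spread between libraries in the results was not tested. With 2 Aal libraries, a fit without 1 of them assumes that the lone one varies like the other group.

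In A1 against Aal the members that were higher numbered 3 without the trend, with voom, with the length trend removed, with median-ratio scaling and with quantile normalization, 8 without A1-3 and A3-1, 12 at a p of at most 0.05, and 2 to 8 with 1 library left out (2 without Aal-2 and 8 without A1-3), where 0 to 1 were called. Correlations of deviations from the group means between A1 and A3 libraries of the same replicate number were -0.107, 0.0216 and -0.323. With 3 libraries a group, these cannot tell whether samples of a number were paired. With a replicate block 8 were higher in A1 against Aal, 0 in A3 against A1, and 1 was called in A3 against Aal. With the length trend removed and the replicate block, 0 were higher in A3 against A1 and 7 in A3 against Aal.

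In A3 against A1, 1 was called with a pseudocount of 0.1 and 1 with voom. With an FPKM minimum of 5, and without A1-3 and A3-1, 0 were higher, and 0 to 1 with a library left out. Lower were 2 without A1-3 and A3-1 and 1 at a p of at most 0.05. In A3 against Aal, 2 were called with a pseudocount of 0.1, 1 without A1-3 and A3-1, 1 with voom and 0 to 5 with a library left out (5 without Aal-1, 3 without A3-2). Higher were 18 at a p of at most 0.05 and 6 to 13 with a library left out. Lower were 0 without the trend, 2 without A1-3 and A3-1, 2 at a p of at most 0.05 and 0 to 2 with a library left out.

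Small log2 fold changes that did not pass changed sign. With quantile normalization these were, for A1 against Aal *Cox7c* -0.069, *Ndufa7* -0.070, *Sdhaf3* 0.000522, *Sdhc* -0.028, *Tomm7* -0.054 and *Uqcrc1* -0.11, for A3 against A1 *Mrpl42* -0.066 and for A3 against Aal *Mrpl42* -0.0083, *Ndufa7* -0.12, *Ndufaf5* 0.013, *Sdhc* -0.13 and *Uqcrc1* -0.10. With median-ratio scaling these were, for A1 against Aal *Cox7c* -0.033, *Tomm7* -0.012 and *Uqcrc1* -0.0033 and for A3 against Aal *Sdhc* -0.036. With the length trend removed these were, for A1 against Aal *Cox7c* -0.099, *Sdhc* -0.0076, *Tomm7* -0.046 and *Uqcrc1* -0.022, for A3 against A1 *Cox5b* -0.024 and *Mrpl42* -0.046 and for A3 against Aal *Ndufa7* -0.058, *Sdhc* -0.11 and *Uqcrc1* -0.013. With the length trend removed and the replicate block these were, for A1 against Aal *Cox7c* -0.023 and *Sdhc* -0.010, for A3 against A1 *Cox5b* -0.024 and *Mrpl42* -0.046 and for A3 against Aal *Ndufa7* -0.0092, *Sdhc* -0.075 and *Uqcrc1* -0.074. Without A1-3 and A3-1 these were, for A3 against A1 *Cox17* -0.17, *Cox5b* -0.021, *Mrpl42* -0.040 and *Tomm7* -0.076 and for A3 against Aal *Ndufa7* -0.0066 and *Sdhc* -0.016.

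With 1 library left out, the ranges that crossed 0 were, for A1 against Aal, *Cox7c* -0.079 to 0.11, *Sdhaf3* -0.30 to 0.25, *Timm8a2* -0.12 to 0.0031 and *Tomm7* -0.15 to 0.22. For A3 against A1 they were *Cox17* -0.053 to 0.30, *Cox5b* -3.59e-05 to 0.11, *Mrpl22* -0.061 to 0.0083, *Mrpl42* -0.033 to 0.055, *Mrpl53* -0.19 to 0.082, *Ndufa7* -0.12 to 0.036, *Sdhaf3* -0.17 to 0.051 and *Uqcrc1* -0.030 to 0.077. For A3 against Aal they were *Ndufa7* -0.0066 to 0.11, *Ndufaf5* -0.13 to 0.032, *Sdhaf3* -0.35 to 0.19, *Sdhc* -0.054 to 0.082 and *Tomm7* -0.020 to 0.35.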
